A study of Mus musculus with 15 samples.

Results

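Notch signalling passes from a membrane ligand on one cell to a receptor on its neighbour, and the cleaved receptor then enters the nucleus and acts through the DNA-binding protein RBPJ. Its best known targets are the basic helix-loop-helix repressors of the Hes and Hey families and Nrarp, which feeds back on the pathway. In blood vessels the pathway is known for its part in arterial identity and in the choice between tip and stalk cells during sprouting. The genes described here are *Rbpj*, the DNA-binding partner, and 5 of its targets, *Hes1*, *Hey1*, *Hey2*, *Heyl* and *Nrarp*. They were chosen by name from general knowledge of the pathway, with earlier results of these data known. They are 6 of the 44674 genes in the count table. All 6 passed the filter on low counts, which kept 19401 genes.

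Bulk RNA-seq libraries were made from cultured mouse cells. Bone marrow endothelial cells (BMEC) came from cultures of whole marrow of Tie2-CreERT2;Rosa26-tdTomato mice given Tamoxifen, in which Cre driven by the *Tek* promoter switches on tdTomato mainly in endothelial cells (EC). CD45- tdTomato+ cells of the first culture (P0) were sorted by endomucin (Emcn), a sialomucin on venous and sinusoidal EC, into P0 Emcn+ and P0 Emcn- BMEC. P1, P2, P3 and P4 are Emcn- BMEC of later passages. The study passaged Emcn- BMEC both as sorted cells and within whole marrow culture, and which of these gave the libraries is not stated. Lung libraries are, by the study's methods, Emcn- cells sorted from lung cultures, and the labels call them only lung. BM mesenchymal stromal cells (BM MSC) were CD45- tdTomato+ cells from cultures of Osx-Cre;Rosa26-tdTomato mice, in which an osteolineage promoter drives Cre. The labels give the genotype WT for all libraries, and by the methods the mice were adult. P0 Emcn+, P0 Emcn-, lung, BM MSC, P1, P2 and P3 had 2 libraries each and P4 had 1, for which no spread can be given.

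Library totals ran from 9914620 counts, in P0 Emcn- replicate 2, to 39718807 counts, so that 3 counts, the most that a count of 0 allows, were worth 0.0755 to 0.303 counts per 1000000 (CPM). The labels divide the libraries into 4 batches. The methods describe 3 batches of replicates on 2 instruments, and which library ran on which instrument is not given in the sources used here. Of P0 Emcn+, P0 Emcn- and lung, batch a holds replicate 2 and batch d replicate 1, while batch b holds replicate 1 of P1 to P4, and batch c holds replicate 2 of P1 to P3 and both BM MSC libraries. No batch joins P0 or lung with passaged cells or BM MSC, and for P1 or BM MSC against P0 Emcn- the batch cannot be told apart from the condition. By the methods BM MSC grew in Mesencult medium and were sorted from their first culture, while BMEC grew in EGM-2, an endothelial medium. In every comparison with BM MSC the medium cannot be told apart from the cell type. Against P1 to P3, also within batch c, the same holds for passage. The summed level of 10 EC markers was 12682 and 10626 CPM in P0 Emcn+ BMEC, 275 and 69.9 CPM in P0 Emcn- BMEC, 166 and 622 CPM in lung, 42.7 and 362 CPM in BM MSC and 44.8 to 70.4 CPM in passaged BMEC. The sum of 10 fibroblast and stromal markers ran the other way, at 377 and 646 CPM in P0 Emcn+ BMEC, 17088 and 13920 CPM in P0 Emcn- BMEC, 9633 and 10876 CPM in lung, 15445 and 12878 CPM in BM MSC and 3297 to 6178 CPM in passaged BMEC. The sum of 8 osteolineage markers was 189 and 73.4 CPM in P0 Emcn+ BMEC, 2541 and 864 CPM in P0 Emcn- BMEC, 1705 and 712 CPM in lung, 5122 and 4278 CPM in BM MSC and 1485 to 5697 CPM in passaged BMEC. In passaged BMEC *Spp1* alone made up most of that sum, at 1423 to 5592 CPM. Each other osteolineage marker was higher in both BM MSC libraries than in any passaged library. Of the EC markers 1 was at 0 in P4 and 0 were at 0 in the other libraries. The libraries labelled Emcn- BMEC thus held the defining EC genes near the level of BM MSC and stromal genes far above P0 Emcn+ BMEC. *Cdh5*, which encodes VE-cadherin, was at 119 and 6.35 CPM in P0 Emcn- BMEC and at 0.0564 to 2.33 CPM in passaged BMEC. It was at 7.86 and 156 CPM in BM MSC and at 6222 and 5118 CPM in P0 Emcn+ BMEC. The name Emcn- BMEC is kept below as the labels' name.

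*Nrarp* (ENSMUSG00000078202) lies at chr2:25180758-25183339 on the plus strand of GRCm38 in 1 exon, and *Hey2* (ENSMUSG00000019789) at chr10:30832359-30842801 on the minus strand. Their promoters are shown because *Nrarp* was highest in P0 Emcn+ BMEC and *Hey2* in BM MSC. The windows are the 250 bases before the RefSeq start (assembly GRCm38.p6), at chr2:25180508-25180757 for *Nrarp* and, read on the minus strand, at chr10:30842784-30843033 for *Hey2*. The RefSeq promoter table holds 3 of the 6 genes, *Hey2*, *Nrarp* and *Rbpj*. Capitals mark each match, on either strand, to GTGGGAA (whose last 6 letters are the core TGGGAA of RBPJ sites) or to the E-box CACGTG, which Hes and Hey proteins can bind.
Nrarp: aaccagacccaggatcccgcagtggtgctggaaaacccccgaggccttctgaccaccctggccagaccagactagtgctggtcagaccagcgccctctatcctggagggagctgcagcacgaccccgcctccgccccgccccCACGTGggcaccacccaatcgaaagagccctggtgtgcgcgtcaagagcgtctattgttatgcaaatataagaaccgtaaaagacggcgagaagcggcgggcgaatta
Hey2: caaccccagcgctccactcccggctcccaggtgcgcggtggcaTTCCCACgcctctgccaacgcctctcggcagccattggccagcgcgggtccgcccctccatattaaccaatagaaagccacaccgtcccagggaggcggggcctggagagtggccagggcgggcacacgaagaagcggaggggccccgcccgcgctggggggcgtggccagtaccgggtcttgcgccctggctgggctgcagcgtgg
The *Hey2* window holds 1 TGGGAA, on the strand opposite to the gene and beginning 207 bases before the start, and the *Nrarp* window holds none. *Rbpj* has 2 overlapping windows in the table, of which chr5:53590096-53590345 holds 2 TGGGAA and chr5:53590236-53590485 holds 1. *Nrarp* has 1 CACGTG, 108 bases before the start. Of 32851 promoter windows of this length, 21.6% hold TGGGAA, 5.42% the longer GTGGGAA and 6.02% CACGTG, counting both strands, so each match is also found in many other genes. CACGCG, another site of Hes and Hey proteins, is in neither window shown and in 7.62% of all windows. The last 18 bases of the *Hey2* window lie within an annotated exon of GENCODE M21.

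*Nrarp*, which encodes a small ankyrin-repeat protein that binds the Notch transcription complex and damps it, was the target most restricted to P0 Emcn+ BMEC. It stood at 267.1 and 190.8 CPM in P0 Emcn+ replicates 1 and 2, and at 5.87 and 0.101 CPM (233 counts and 1 count) in P0 Emcn- replicates 1 and 2. Lung gave 2.26 and 12.3 CPM, BM MSC 0.112 and 2.16 CPM, and passaged BMEC 0.119 to 0.705 CPM. Both P0 Emcn+ libraries lay above all 13 others, while in the order of means lung, P0 Emcn-, BM MSC and P3 each overlapped the group that followed, up to P4, and P2 and P1 came last. Against P0 Emcn- BMEC, *Nrarp* rose in P0 Emcn+ BMEC by 6.09 on the log2 scale (SE 1.30, edgeR quasi-likelihood test with Benjamini-Hochberg adjusted p = 0.00472), and it kept the call under all 11 alternatives. The size of the change turned on P0 Emcn- BMEC, at 11.1 without its replicate 1 and 5.32 without its replicate 2. It was 5.53 within batch d but 10.1 within batch a, where P0 Emcn- replicate 2 held the single count, and the CPM ratio in that batch was 1892 (exact 95% counting interval 339 to 74733). In bulk samples, fewer cells of a type and less RNA per cell cannot be told apart.

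Beside the 10 EC markers, levels were set as a share of each gene's P0 Emcn+ mean. P0 Emcn- replicates 1 and 2 had 2.56% and 0.0440% of *Nrarp*, where the EC markers had a median of 2.44% and 0.204%. In replicate 1, 4 of the 10 EC markers had a larger share than *Nrarp*, and in replicate 2 all 10 did. Lung replicates 1 and 2 had 0.989% and 5.36% of *Nrarp*, with an EC marker median of 1.82% and 6.59%, and 8 and 6 of the 10 markers had a larger share. *Nrarp* was higher in P0 Emcn- replicate 1 than in replicate 2, as were 9 of the 10 EC markers, the exception being *Tek* (13.9% and 33.7%), whose promoter drives the Cre. In lung *Nrarp* and 9 of the 10 markers were higher in replicate 2, the exception being *Cldn5* (0.718% and 0.325%). *Hes1* and *Hey1* stood at 98.7% and 77.4% of the P0 Emcn+ mean in P0 Emcn- replicate 1 and at 32.2% and 23.7% in replicate 2. The part of residual EC in these values was not tested. *Nrarp* has an antisense neighbour, Gm38287, that shares 2051 exonic bases with it, and whether counting used strand is not given in the sources used here. Gm38287 had 8 and 11 counts in P0 Emcn+ BMEC and at most 2 in any other library.

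**Figure D1:**
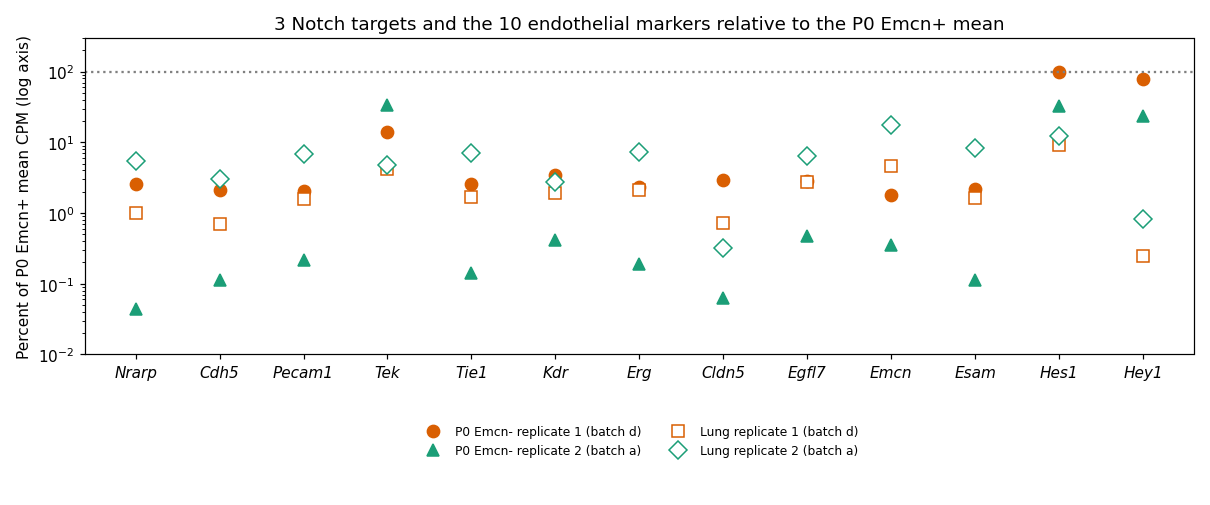
Level of each gene (x axis) as a percent of its mean CPM in P0 Emcn+ BMEC (y axis, log scale, dotted line at 100%), with 1 point for each P0 Emcn- and lung library. *Nrarp* lies at 0.0440% to 5.36%, within the range of the 10 EC markers except in P0 Emcn- replicate 2, where it lies below all of them, while *Hes1* and *Hey1* in P0 Emcn- BMEC lie at 23.7% to 98.7%.

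*Hes1* (ENSMUSG00000022528, chr16:30064384-30067796, plus strand) encodes a repressor of the Hes family. It was high in both P0 populations and far lower in passaged BMEC, which share no batch with P0. P0 Emcn+ BMEC gave 140.5 and 93.3 CPM, and P0 Emcn- BMEC 115.4 and 37.6 CPM, so these groups overlapped. They were 10.7 and 14.2 CPM in lung and 17.8 and 37.9 CPM in BM MSC, whose upper library reached the lower P0 Emcn- library. In passaged BMEC they were 1.19 and 2.01 CPM at P1, 2.71 and 2.19 CPM at P2, 10.4 and 6.33 CPM at P3 and 11.9 CPM at P4. The lowest level was at P1 and the levels of P2, P3 and P4 followed in that order without overlap.

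*Hes1* did not pass the test between P0 Emcn+ and P0 Emcn- BMEC (log2 fold change 0.64, SE 0.51, adjusted p = 0.386), a difference that reached 1.69 (adjusted p = 0.0333) without P0 Emcn- replicate 1 and so passed. At P1 it was lower by 5.44 than in P0 Emcn- BMEC (SE 0.64, adjusted p = 0.000451), a call kept under all 11 alternatives. None of these can separate passage from batch, since P0 and P1 share no batch. Lung was lower than P0 Emcn- BMEC by a log2 fold change of -2.57 (SE 0.54, adjusted p = 0.0241). That call was lost when either lung library or P0 Emcn- replicate 1 was left out (adjusted p = 0.0895 to 0.158) and in a fit of the compared groups only (adjusted p = 0.139). Within batches the lung difference was -1.36 in batch a and -3.34 in batch d. BM MSC did not differ from P0 Emcn- BMEC beyond the limit (-1.39, SE 0.52, adjusted p = 0.0621) unless P0 Emcn- replicate 2 was left out (-2.00, adjusted p = 0.0112), but exceeded the mean of P1 to P3 by 3.01 (SE 0.39, adjusted p = 0.000423), and by 3.00 within batch c, under all 15 alternatives.

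From P1 to P3, *Hes1* was higher in both batches, by 3.12 in batch b and 1.65 in batch c on the log2 scale. The fitted difference of 2.45 (SE 0.58) had an unadjusted p = 0.00174 and missed the limit after adjustment over all genes (adjusted p = 0.112 by edgeR's quasi-likelihood test). It passed with DESeq2 (2.47, adjusted p = 0.000729) and with no filter on low counts (2.46, adjusted p = 0.0291). Macrophage and blood markers also differed along this series, with a summed level of 10 genes of 241 and 297 CPM in P0 Emcn- BMEC, 77.6 and 253 CPM at P1 and 16.3 and 11.7 CPM at P3. From P1 to P3 that sum was lower while *Hes1* was higher, and its part in the fall from P0 to P1 was not tested.

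**Figure D2:**
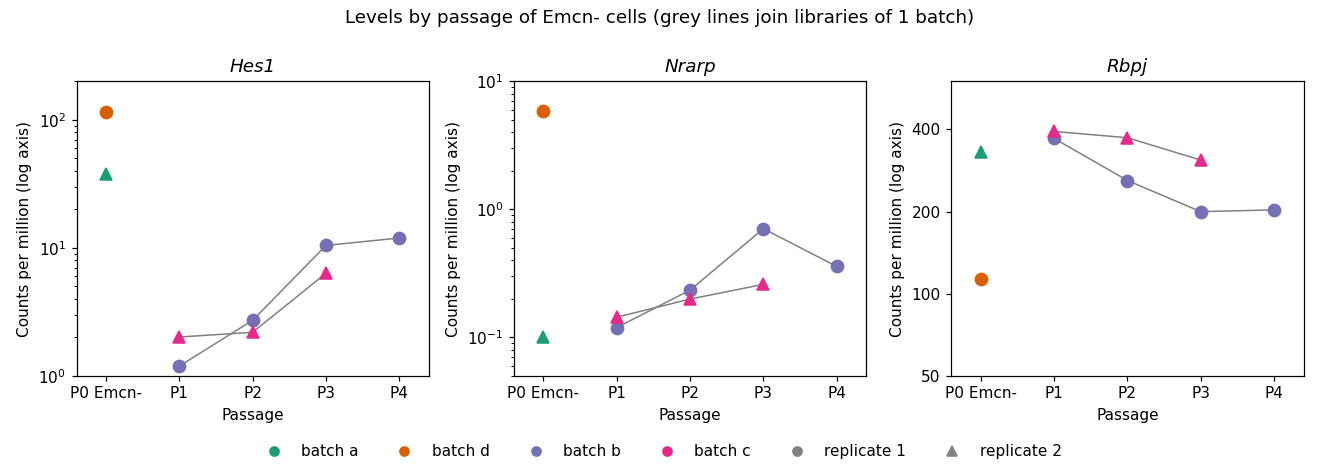
CPM (y axis, log scale) of *Hes1*, *Nrarp* and *Rbpj* in each Emcn- BMEC library by passage (x axis), with grey lines joining passaged libraries of 1 batch and colours giving the batch. *Hes1* is at 37.6 and 115.4 CPM at P0, at 1.19 and 2.01 CPM at P1 and at 6.33 to 11.9 CPM at P3 and P4, while *Rbpj* stays between 112.8 and 393.0 CPM. P0 and passaged libraries share no batch.

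*Hey1* (ENSMUSG00000040289, chr3:8663359-8667256, minus strand), a Hey repressor active in developing arteries, had the same high groups as *Hes1* at lower levels. P0 Emcn+ BMEC gave 17.4 and 4.75 CPM and P0 Emcn- BMEC 8.56 and 2.62 CPM, ranges that overlapped. In lung it was nearly absent, with 1 and 2 counts (0.0276 and 0.0922 CPM), whereas P0 Emcn- BMEC had 340 and 26. It was at 0.421 and 3.07 CPM in BM MSC and at 0.166 to 0.577 CPM in all passaged libraries. Lung was thus the lowest group, below P1 without overlap, and P0 Emcn+, P0 Emcn- and BM MSC each overlapped the next.

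With the counts of each group's libraries pooled, the CPM of *Hey1* in P0 Emcn- BMEC was 142 times that of lung (exact 95% counting interval 48.3 to 693, for 366 counts against 3), and 340 of the 366 counts came from P0 Emcn- replicate 1. The fitted log2 fold change of lung was -6.57 (SE 1.31, adjusted p = 0.0192). That call also failed without either lung library or P0 Emcn- replicate 1 (adjusted p = 0.0735 to 0.152) and in a fit of the compared groups only (adjusted p = 0.0655). At P1 *Hey1* fell by 4.47 against P0 Emcn- BMEC (SE 1.09, adjusted p = 0.0217), which missed the limit without P0 Emcn- replicate 1, P1 replicate 1 or P1 replicate 2 (adjusted p = 0.117 to 0.131). It did not pass between P0 Emcn+ and P0 Emcn- BMEC (0.99, SE 0.88, adjusted p = 0.440), where the sign turned to -0.22 without P0 Emcn+ replicate 1. BM MSC exceeded P1 to P3 by 2.18 (SE 0.73, adjusted p = 0.0448), but BM MSC replicate 1 lay within the passaged range. Without BM MSC replicate 2 that difference was 0.19 (adjusted p = 0.933), with shrinkage by ashr it was 1.34, inside the fold limit, and without P1 replicate 1 or 2, P2 replicate 2 or P3 replicate 1 or 2 the adjusted p was 0.0748 to 0.0903.

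*Hey2* (4593 exonic bases), which encodes the repressor known as Gridlock from its part in forming the aorta, was the one target highest in BM MSC. BM MSC gave 3.37 and 6.94 CPM (120 and 228 counts) and lung 0.497 and 2.63 CPM. Passaged BMEC gave 0.0717 to 0.440 CPM. P0 Emcn+ BMEC had 0 and 3 counts and P0 Emcn- BMEC 6 counts and 1 count, at or near the limit of detection, so no difference between these 2 populations was detectable at this depth. BM MSC lay above lung, and lung above every passaged and P0 library, without overlap.

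Against P0 Emcn- BMEC, *Hey2* was higher in BM MSC by 5.27 (SE 1.09, adjusted p = 0.00477), and against P1 to P3 by 3.97 (SE 0.63, adjusted p = 0.00126). The difference was 4.12 within batch c, and both calls held under all alternatives, 11 and 15 in number. The summed counts of BM MSC exceeded those of P0 Emcn+ BMEC by a CPM ratio of 97.3 (exact 95% counting interval 33.0 to 474, for 348 counts against 3). Lung differed from P0 Emcn- BMEC by 3.50 (SE 1.07, adjusted p = 0.102), not past the limit by edgeR but past it by DESeq2 (3.60, adjusted p = 0.0231). Along the passages *Hey2* showed no difference past the limit (P3 against P1: 0.69, SE 0.99, adjusted p = 0.823), and the sign of the P1 difference from P0 Emcn- BMEC turned from 0.83 to -0.76 without P1 replicate 1.

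*Heyl* (ENSMUSG00000032744, chr4:123233556-123249875, plus strand), a Hey repressor known in vascular smooth muscle and pericytes as a target of Notch3, was highest in P0 Emcn- BMEC. It was at 11.7 and 4.24 CPM there (465 and 42 counts), against 0.792 and 0.116 CPM in P0 Emcn+ BMEC and 0.580 and 0.138 CPM in lung. BM MSC gave 0.281 and 3.74 CPM, a 10-count and a 123-count library. All P1, P2 and P3 libraries held 0 or 1 count, and P4 held 3. P0 Emcn- BMEC lay above every other library, and P0 Emcn+, lung and BM MSC overlapped.

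*Heyl* was lower in P0 Emcn+ than in P0 Emcn- BMEC by a log2 fold change of -4.07 (SE 1.27, adjusted p = 0.0351). The difference was -4.51 in batch a and -3.73 in batch d, but the call was lost without P0 Emcn+ replicate 1, P0 Emcn+ replicate 2 or P0 Emcn- replicate 1 (adjusted p = 0.0555 to 0.162). Lung, with a log2 fold change of -4.32 (SE 1.30, adjusted p = 0.103), did not pass, but did with DESeq2 (-4.39, adjusted p = 0.0201), with ashr (-2.33) and by edgeR with no filter on low counts (-4.34, adjusted p = 0.0315). BM MSC differed from P0 Emcn- BMEC by -1.94 (SE 1.13, adjusted p = 0.210), and with BM MSC replicate 2 left out by -4.72 (adjusted p = 0.0414). With counts pooled over each group, P0 Emcn- had 507 and P1 had 1, a CPM ratio of P0 Emcn- to P1 of 628 (exact 95% counting interval 112 to 24861; fitted adjusted p = 0.0150). The P1 call missed the limit without P0 Emcn- replicate 1 or either P1 library (adjusted p = 0.0570 to 0.0964). BM MSC was higher than P1 to P3, with a pooled CPM ratio of 183 (exact 95% counting interval 49.7 to 1526; fitted adjusted p = 0.00263), a call that missed the limit without BM MSC replicate 2 (adjusted p = 0.0630).

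The summed level of 10 mural markers (pericyte and smooth muscle genes) did not follow *Heyl* across all groups. It was 1311 and 686 CPM in P0 Emcn- BMEC, 1565 and 2244 CPM in BM MSC, 805 and 556 CPM in P0 Emcn+ BMEC, 743 and 814 CPM in lung and 323 to 419 CPM in passaged BMEC. Its members went opposite ways between the P0 populations. *Mcam* was at 568 and 340 CPM in P0 Emcn+ BMEC against 26.6 and 8.17 CPM in P0 Emcn- BMEC, whereas *Pdgfrb* was at 16.2 and 9.82 CPM against 1077 and 537 CPM. The receptor gene *Notch3* stood at 146 and 75.4 CPM in P0 Emcn- BMEC, 3.49 and 3.71 CPM in P0 Emcn+ BMEC, 71.9 and 113 CPM in BM MSC, 37.7 and 29.6 CPM in lung and 26.9 to 73.4 CPM in passaged BMEC. *Notch3* was thus lowest in P0 Emcn+ BMEC, while *Heyl* was lowest in passaged BMEC. The part of mural cells in the *Heyl* values was not tested.

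**Figure D3:**
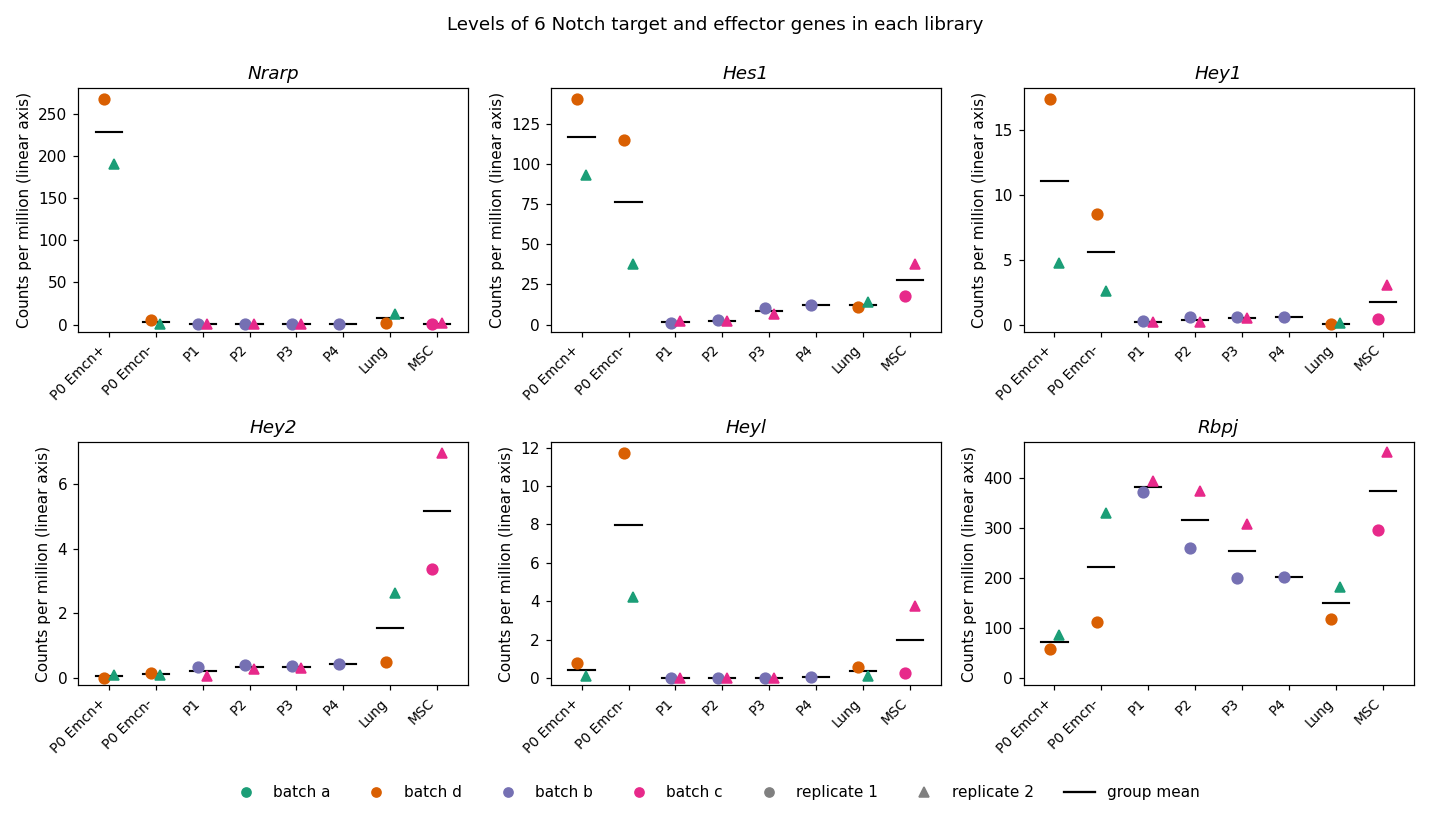
CPM (y axis, linear from 0) of the 6 genes in each library by group (x axis), with circles for replicate 1, triangles for replicate 2, colours for batches and black bars for group means. *Nrarp* is high only in the 2 P0 Emcn+ libraries (190.8 and 267.1 CPM), *Hes1* and *Hey1* in both P0 populations, *Heyl* in P0 Emcn- BMEC and *Hey2* in BM MSC, and *Rbpj* is present in every library at 58.0 to 451.9 CPM.

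*Rbpj* (ENSMUSG00000039191, chr5:53466152-53657362, plus strand, 12 annotated transcripts), the transcription factor through which all 4 Notch receptors act, was expressed in every library and was lowest in P0 Emcn+ BMEC. P0 Emcn+ BMEC gave 58.0 and 87.3 CPM and P0 Emcn- BMEC 112.8 and 330.3 CPM. Lung gave 117.5 and 182.0 CPM and BM MSC 296.2 and 451.9 CPM. Passaged BMEC gave 370.7 and 393.0 CPM at P1, 259.8 and 372.8 CPM at P2, 199.8 and 308.7 CPM at P3 and 202.8 CPM at P4. P0 Emcn+ BMEC lay below every other library, while P1, BM MSC, P2, P3 and P0 Emcn- BMEC each overlapped the next in the order of means.

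*Rbpj* was lower in P0 Emcn+ than in P0 Emcn- BMEC by a log2 fold change of -1.57 (SE 0.46, adjusted p = 0.0231), just beyond the fold limit of 1.5. With the replicate block the value was -1.43 (adjusted p = 0.00513), inside the fold limit, and the call was also lost with shrinkage by ashr (-1.24) and in a fit of the compared groups only (adjusted p = 0.106). Leaving out P0 Emcn+ replicate 1 also ended it (-1.29), as did leaving out P0 Emcn- replicate 2 (-0.60, adjusted p = 0.278), the library with the smallest total. The difference was -1.89 in batch a and -0.92 in batch d, the same sign in both. No other comparison of *Rbpj* passed: P1 differed from P0 Emcn- BMEC by 0.95 (SE 0.45, adjusted p = 0.167) without overlap, P3 from P1 by -0.56 (SE 0.45, adjusted p = 0.648), and BM MSC from P1 to P3 by 0.16 (SE 0.36, adjusted p = 0.781). BM MSC differed from P0 Emcn- BMEC by 0.85 (SE 0.45, adjusted p = 0.167). With P0 Emcn- replicate 2 left out, P1 differed by 1.89 (adjusted p = 0.0139) and BM MSC by 1.79 (adjusted p = 0.0118), and both passed.

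The counts assigned to processed pseudogenes of *Rbpj*, relative to those of *Rbpj*, followed the batch. *Rbpj-ps3* (chr6:46529354-46530794) and *Rbpj-ps1* are annotated copies without introns, and whether their counts are reads of *Rbpj* was not tested. They took 25.0%, 24.1% and 15.7% of the summed counts in P0 Emcn+, P0 Emcn- and lung replicate 1 and 14.8% to 16.4% in replicate 1 of P1 to P4, and 0% to 0.284% in all libraries of batches a and c. The split thus separated batches b and d from a and c within each condition that had both. With the 3 genes summed, an alternative chosen after seeing the data, P0 Emcn+ differed from P0 Emcn- BMEC by -1.51 (adjusted p = 0.00620) and P1 from P0 Emcn- BMEC by 0.96 (adjusted p = 0.0708), and no call changed.

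**Figure D4:**
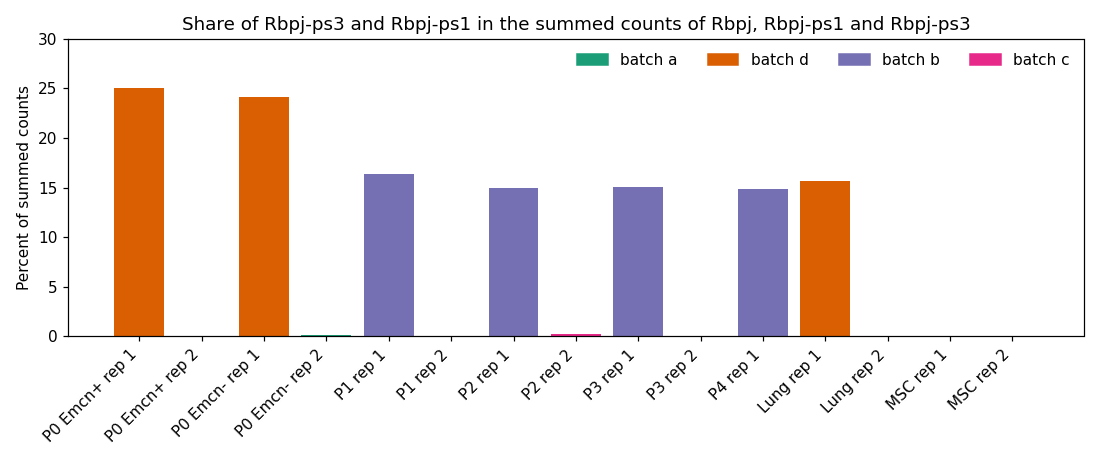
Percent of the summed counts of *Rbpj*, *Rbpj-ps1* and *Rbpj-ps3* that were assigned to the pseudogenes (y axis, bars from 0) in each library (x axis), coloured by batch. Libraries of batches d and b stand at 14.8% to 25.0%, and those of batches a and c at 0.284% or less.

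Counted over the 6 genes, a call being an adjusted p under 0.05 with an absolute log2 fold change above 1.5, P0 Emcn+ against P0 Emcn- BMEC gave 1 higher (*Nrarp*) and 2 lower (*Heyl* and *Rbpj*), where 7.79% and 11.4% of all genes tested were called higher and lower. Lung against P0 Emcn- BMEC gave 2 lower (*Hes1* and *Hey1*) and 0 higher, against 1.7% and 2.13% of all genes. At an unadjusted p under 0.05, 1 gene was higher in lung, *Hey2*, which DESeq2 also called, and *Heyl* was called lower by DESeq2 and by edgeR with no filter. BM MSC against P0 Emcn- BMEC gave 1 higher (*Hey2*), against 11.3% of all genes, and 0 lower, against 7.45%, a direction in which *Hes1* was at an unadjusted p under 0.05. P1 against P0 Emcn- BMEC gave 3 lower (*Hes1*, *Hey1* and *Heyl*), against 3.07% of all genes, and 0 higher, against 5.77%, also at an unadjusted p under 0.05. P3 against P1 gave 0 called, against 0.0773% higher and 0.144% lower over all genes, with *Hes1* at an unadjusted p under 0.05 and called higher by DESeq2 and by edgeR with no filter. BM MSC against P1 to P3 gave 4 higher (*Hes1*, *Hey1*, *Hey2* and *Heyl*), against 8.42% of all genes, and 0 lower, against 5.81%. The 4 comparisons with P0 Emcn- BMEC share its 2 libraries and are not independent of each other.

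The median log2 fold change over the 6 genes was -0.31 for P0 Emcn+, -1.53 for lung, -1.46 for BM MSC and -4.50 for P1 against P0 Emcn- BMEC, beside -0.06 to 0.02 over all genes tested. It was 0.96 for P3 against P1 and 2.60 for BM MSC against P1 to P3, beside -0.01 and 0.01. *Nrarp* was not called at P1 (-4.53, SE 1.61, adjusted p = 0.0780), and P0 Emcn- replicate 2, at 0.101 CPM, lay below both P1 libraries. It was called with DESeq2 (-4.35, adjusted p = 0.0305), with ashr (-1.77), with no filter (-4.56, adjusted p = 0.0357) and without P0 Emcn- replicate 2 (-5.32, adjusted p = 0.0283), and without P0 Emcn- replicate 1 the sign turned to 0.51. In lung the sign of *Nrarp* against P0 Emcn- BMEC differed between batches, at 6.21 in batch a and -1.27 in batch d.

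**Figure D5:**
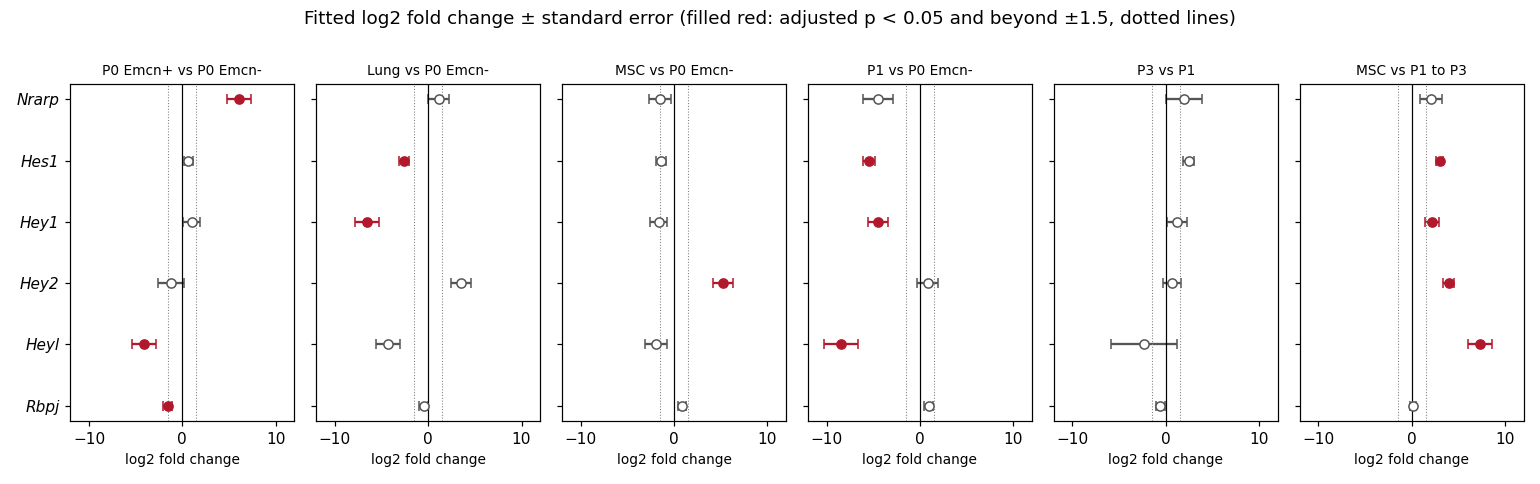
Fitted log2 fold change (x axis) for the 6 genes (y axis) in 6 comparisons, filled red where the call passed, with dotted lines at ±1.5. Bars give the standard error derived from the F statistic of the test. *Heyl* at P1 (-8.49) and *Hey1* in lung (-6.57) are the lowest called values, and *Heyl* in BM MSC against P1 to P3 (7.34) and *Nrarp* in P0 Emcn+ BMEC (6.09) the highest.

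Levels divided by exonic length (CPM per kb) allow a rough comparison between genes. *Nrarp* led in P0 Emcn+ BMEC at 88.7 ± 20.9 CPM per kb (SD, n = 2), ahead of *Hes1* at 57.4 ± 16.4. *Hes1* led in the mean of P0 Emcn- BMEC at 37.6 ± 27.0 CPM per kb, with *Rbpj* next at 17.4 ± 12.1, a difference smaller than the spread of *Hes1*. That order held in replicate 1 of P0 Emcn- BMEC, while in replicate 2 *Rbpj* led. *Rbpj* led in all other groups, among them lung at 11.7 ± 3.58 and BM MSC at 29.3 ± 8.63 CPM per kb, and *Hes1* was next in each of these groups. The exonic length of *Rbpj*, 12750 bases over all its transcripts, makes its value per kb a low estimate for any single transcript.

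Of the wider pathway, a list of 58 genes for receptors, ligands, their modifiers, coactivators and further targets was taken, of which 55 were tested. In P0 Emcn+ against P0 Emcn- BMEC 8 were higher (14.5% of the 55, against 7.79% of all genes tested) and 4 lower (7.27%, against 11.4%), with a median log2 fold change of 0.24 against -0.06 over all genes tested. The 4 largest changes were of the receptor gene *Notch4* (5.75), the glycosyltransferase gene *Mfng* (5.64) and the ligand genes *Dll4* (5.36) and *Jag2* (5.20), all higher. *Dll4*, the main endothelial Notch ligand, gave 270 and 119 CPM in P0 Emcn+ BMEC, against 8.41 and 0.403 CPM in P0 Emcn- BMEC. These 4 genes rose with *Nrarp*, and *Hes1* and *Hey1* did not pass the test.

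At P1 against P0 Emcn- BMEC 5 of the 55 genes were lower (9.09%, against 3.07% of all genes) and 1 was higher (1.82%, against 5.77%), with a median of -0.19 against 0.02 over all genes. *Dll4* fell by 6.37, *Mfng* by 4.50 and *Acta2*, a contractile actin gene, by 2.61. *Dtx1*, which encodes a Deltex ubiquitin ligase, was higher by 3.04. Its counts were 11 and 0 in P0 Emcn- replicates 1 and 2 and 50 and 39 at P1. In the same libraries *Dll4* had 334 and 4 counts against 2 and 1, and *Mfng* 102 and 5 against 2 and 2. Without P0 Emcn- replicate 1 or either P1 library only 1 or 2 of the list were called. In lung *Notch3* alone of the list passed, with a log2 fold change of -1.65 (1.82% of the list lower, against 1.7% of all genes). By edgeR 0 genes of the list were higher, against 2.13% of all genes, with 5 higher at an unadjusted p under 0.05. Without lung replicate 2 the list had no call. In BM MSC against P0 Emcn- BMEC 4 were higher (7.27% of the list, against 11.3% of all genes), among them *Acta2* (3.68), *Dtx1* (3.20) and the cyclin gene *Ccnd1* (2.27), and 5 lower (9.09%, against 7.45%), among them the glycosyltransferase gene *Lfng* (-1.98).

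From P1 to P3 *Ccnd1* alone of the list passed (2.51, adjusted p = 0.0453; 1.82% of the list higher, against 0.0773% of all genes), a call lost on leaving out any of the 4 libraries, and 0 genes were lower, with 7 lower at an unadjusted p under 0.05. In BM MSC against P1 to P3 *Acta2* (6.16), *Dll4* (4.82), *Mfng* (4.35) and *Dll1* (2.03) were higher (7.27% of the list, against 8.42% of all genes) and 1 gene was lower (1.82%, against 5.81%). *Dll4* stood at 0.140 and 4.02 CPM in BM MSC and at 0.0275 to 0.117 CPM in passaged BMEC, and EC markers summed to 42.7 and 362 CPM in the same BM MSC libraries. BM MSC replicate 2 had more than replicate 1 of all 6 genes, of *Dll4*, of the EC marker sum and of the mural marker sum (2244 against 1565 CPM). The part of EC or mural cells in these BM MSC values was not tested.

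Across the 15 libraries, among 9784 or 9785 other genes with a mean of at least 10 CPM, the 3 genes whose log2 CPM was most like each of the 6 were found by Pearson's r. For *Nrarp* they were *Icam2* (0.98), *Afap1l1* (0.97) and *Egfl7* (0.97). By Spearman's rho these 3 were less alike, at 0.76, 0.94 and 0.70, and *Icam2* and *Egfl7* then ranked 219 and 431 among all genes compared. For *Hes1* they were *U2af2*, *Edf1* and *Srsf9* (0.93 to 0.94), for *Hey1* *Ugcg*, *Nrep* and *Bzw2* (0.87 to 0.88), and for *Hey2* *Tead1*, *Hs6st2* and *Ctdspl* (0.92 to 0.95), of which *Tead1* ranked 56 by Spearman's rho. For *Heyl* they were *Sec61a2*, *Il13ra1* and *Ap1ar* (0.88 to 0.91), and for *Rbpj* *Gprasp1*, *Insig2* and *Fam120b* (0.95 to 0.97). Among the 6 genes the highest r was between *Hes1* and *Hey1* (0.80) and the lowest between *Nrarp* and *Rbpj* (-0.87). These values are descriptions over 15 libraries that share conditions, batches and depth.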

How the data were processed

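Conditions, replicate numbers and batches were taken from the sample labels. The authors ran the nf-core RNASeq pipeline, with STAR as aligner (GRCm38) and Salmon for transcript abundance on an Ensembl annotation. They deposited counts per gene as whole numbers, whose rounding is not described. These counts were used as deposited. The members and lists were chosen with earlier results of these data known. CPM are counts per 1000000 of the library total.

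All genes were fitted in R 4.3.3 with edgeR 4.0.16 (TMM factors, filterByExpr with a minimum count of 10 and a minimum total of 15, quasi-likelihood test, 1 coefficient per condition over 15 libraries, 7 residual degrees of freedom). P-values were adjusted by Benjamini-Hochberg over all 19401 genes tested. A call needed an adjusted p under 0.05 together with a log2 fold change beyond 1.5 in either direction. BM MSC were set against the mean of the P1, P2 and P3 coefficients. Each SE was derived from the test, as the absolute log2 fold change divided by the square root of the F statistic. It is not a measured spread between replicates, least of all for groups at or near no counts. Log2 CPM used TMM factors and a prior count of 2 for the genes alike in pattern, the differences within batches and the deviations of replicates. The prior count makes differences within batches smaller where counts are low, so they are not plain ratios of the CPM given.

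By the reporting summary replicates were independent cultures from different animals, and the counts of each pair differed beyond sampling noise (chi-square of 38.6 to 129.5 per degree of freedom). Intervals and floors cover counting error only. By the labels, same-numbered replicates share a batch among P0 and lung libraries and among P1 to P3, so the numbers were taken to pair these samples. Deviations from the group means correlated there by 0.139 to 0.209 and 0.354 to 0.451. Between the other pairs of groups the values ran from -0.104 to 0.127, so the pairing of P0 and lung libraries was weak. The main fit did not use the pairing. Alternatives were DESeq2 1.42.0 without and with ashr 2.2.63, RLE factors, no filter, at least 50 counts in 2 libraries, the replicate block (batch terms), only the compared groups, no fold limit, Spearman's correlation for likeness, and each library left out. Where this left 1 library in a group, its spread was taken from the other groups. Positions come from GENCODE M21 and promoters from RefSeq (GRCm38.p6). All 6 genes, the 4 largest called changes of the pathway list in each comparison and 3 genes alike in pattern for each member were named. *Notch3* in the *Heyl* paragraph, *Cdh5*, *Tek*, *Cldn5*, *Mcam*, *Pdgfrb* and *Spp1* were added after their values were seen. The fit was tested on simulated data.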

Additional observations from a re-analysis of the deposited data

How the results depend on the processing

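Over the 6 genes, 6 comparisons and their alternatives, 361 of 419 values kept direction and side of the limit, 30 lost a call, 18 gained one and 10 changed sign. The cause of each change was not tested. With the replicate block, *Rbpj* in P0 Emcn+ BMEC lost its call (-1.43), *Rbpj* in BM MSC against P1 to P3 went from 0.16 to -0.009, and no other call of the 6 genes changed. The block raised the calls over all genes from 43 to 106 for P3 against P1. Both BM MSC libraries are of batch c, so the block pairs none of them. Nor can the block separate passage from batch for P1 against P0 Emcn- BMEC, which share no batch.

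The number of the 6 genes called, with each library left out in turn, was 1 to 3 for P0 Emcn+, 0 to 2 for lung, 1 to 3 for BM MSC and 1 to 5 for P1 against P0 Emcn- BMEC, and 2 to 4 for BM MSC against P1 to P3. For lung it was 4 with DESeq2 and with ashr and 0 in a fit of the compared groups only. For P3 against P1 it was 1 with DESeq2, with ashr and with no filter. The number called in the pathway list with no fold limit was 27 for P0 Emcn+, 2 for lung, 25 for BM MSC and 13 for P1 against P0 Emcn- BMEC, and 22 for BM MSC against P1 to P3. For lung it was 2 with DESeq2, with ashr and with no filter, 0 with the compared groups only and 0 to 2 with a library left out. For P1 it was 2 with the compared groups only and 1 to 7 with a library left out. For P3 against P1 it was 2 with DESeq2, with ashr and with no filter, and 0 to 0 with a library left out, and for BM MSC against P1 to P3 it was 3 with the compared groups only.

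Signs changed only in the values below and, under the block, in *Rbpj* above. With each library left out, *Hey1* in P0 Emcn+ BMEC ranged from -0.22 to 2.13. Against P0 Emcn- BMEC, *Nrarp* ranged from -0.54 to 6.14 in lung, from -4.78 to 3.48 in BM MSC and from -5.32 to 0.51 at P1, *Rbpj* in lung from -1.07 to 0.46 and *Hey2* at P1 from -0.76 to 1.54. *Hey2* in P3 against P1 ranged from -0.009 to 2.29. In BM MSC against P1 to P3, *Nrarp* ranged from -1.15 to 3.01 and *Rbpj* from -0.14 to 0.41. *Heyl* in P3 against P1 without P1 replicate 1 has no value, since no count is left in either group. Depth limits *Hey2* in both P0 populations, *Hey1* in lung and *Heyl* in passaged BMEC, all at a few counts.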
